A study of Mus musculus with 120 samples.

Results

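Wild-type (WT) mouse embryonic fibroblasts, connective tissue cells grown from embryos, were compared here after 0.5 h in 1 µM thapsigargin for the place of their mRNA: on the endoplasmic reticulum (ER) or in the cytosol. The genes described are the 3745 of 22417 rows of the deposited mRNA table with a total level of at least 20 RPKM (reads scaled for gene length and library size) at 0.5 h and a fraction on the ER given. The ER level is the total multiplied by that fraction, and the cytosol level is the remainder. Of the 3745 genes, 677 carry the authors' flag for ER-targeted products and 3068 do not. The groups used are WT ER at 0.5 h, WT cytosol at 0.5 h and, as the baseline, untreated WT ER and untreated WT cytosol, with 2 mRNA libraries in each. WT libraries of 1, 2 and 4 h and WT footprints are used as side values. So are cells of the genotypes labelled eIF2A S51A and ATF4-/- at 0.5 h. These genotype names are written as in the labels. All cells received the same medium and the same opening with digitonin and then DDM. Nothing in the labels ties the replicate libraries to separate cultures, and the p-values below may therefore reflect technical spread alone.

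Secretory and membrane proteins begin synthesis on cytosolic ribosomes, and a hydrophobic signal sequence or first membrane span, once it leaves the ribosome, is bound by the signal recognition particle and brought to the translocon of the ER. The mRNA is thereby held on the ER by the ribosomes that translate it, and mRNAs of cytosolic proteins can also be found there. Thapsigargin blocks the calcium pump of the ER, empties its calcium store and sets off the unfolded protein response, in which the kinase PERK phosphorylates eIF2α and lowers initiation of translation.

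The start of the coding region, where such a targeting sequence can lie, is shown for 6 flagged genes and 1 gene without the flag. The genes were named by the rule given with the methods. The first 3 (Ccl2, Hsp90b1 and Bcap31) were those with the largest falls in ER against cytosol mRNA since the untreated state, and the next (Vmn2r55, Col4a1 and Scpep1) were the flagged genes called higher on the ER at 0.5 h. Myl12b, a light chain of non-muscle myosin, is shown as a cytosolic contrast. The histone genes that were lower still on the ER are not shown, because their copies can share reads. Other genes without the flag that were lower still, such as Crabp2, are not shown either. In the flagged genes, capitals mark the codons of the most hydrophobic 10 residues within residues 2 to 40, by the Kyte-Doolittle scale. Genes where this window ran past the first coding exon or the first 90 coding bases were passed over. No stretch is marked in Myl12b, which has no flag, and its highest window had a mean of 0.68. The bases were read from GENCODE transcripts on GRCm38 and lie in the first coding exon, chr11:82035662-82035737 on the plus strand for Ccl2, and on the minus strand chr10:86705307-86705355 for Hsp90b1, chrX:73714795-73714884 for Bcap31, chr7:12684902-12684991 for Vmn2r55, chr8:11312516-11312599 for Col4a1, chr11:88955294-88955369 for Scpep1 and chr17:70977142-70977231 for Myl12b.
Ccl2: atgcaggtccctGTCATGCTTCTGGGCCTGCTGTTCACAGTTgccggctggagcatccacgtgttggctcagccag
Hsp90b1: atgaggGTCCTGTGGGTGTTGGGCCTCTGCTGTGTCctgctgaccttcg
Bcap31: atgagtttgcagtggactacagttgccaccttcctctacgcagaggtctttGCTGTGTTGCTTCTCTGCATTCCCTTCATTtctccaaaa
Vmn2r55: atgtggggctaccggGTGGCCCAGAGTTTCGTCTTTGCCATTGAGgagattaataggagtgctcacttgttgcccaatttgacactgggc
Col4a1: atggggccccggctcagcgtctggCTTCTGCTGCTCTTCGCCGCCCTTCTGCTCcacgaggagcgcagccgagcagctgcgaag
Scpep1: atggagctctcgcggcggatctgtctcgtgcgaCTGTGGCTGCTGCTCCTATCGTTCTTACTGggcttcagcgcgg
Myl12b: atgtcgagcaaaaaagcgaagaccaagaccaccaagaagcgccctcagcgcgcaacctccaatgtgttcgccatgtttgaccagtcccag
The window means were 2.72 in Ccl2, 2.77 in Hsp90b1, 3.01 in Bcap31, 3.30 in Col4a1 and 2.77 in Scpep1, all above the value of 2 used for a hydrophobic start. Vmn2r55, at 1.43, was under it, so its marked stretch does not count as a hydrophobic start here.

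The libraries were shallow. Single libraries were recovered from the pooled values (libraries a and b of each group, numbered here by the level of 1 read and not by the labels). At 0.5 h they held 101425 and 75303 reads in ER a and b, against 96263 and 72184 in cytosol a and b. The untreated libraries held 106472 and 57109 reads on the ER, against 118893 and 95431 in the cytosol. Library values were recovered for 3291 members. The median member had 9 and 6 reads in the ER libraries, against 7 and 6 in the cytosol libraries, and 547 members (16.6%) had at least 1 library at 0. A deposited level of such a gene is overstated, because the authors averaged only over libraries with reads. A test was possible for 2138 members (315 flagged and 1823 not flagged), and 1607 members did not reach the minimum or had no library values. Because the members had to reach 20 RPKM at 0.5 h, genes with a low level only at that time are missing. The members just inside the threshold were Tox4 at 20.01, Ublcp1 at 20.01 and Phf11d at 20.02 RPKM, with fractions on the ER of 0.533, 0.431 and 0.236. Just outside it were Rassf5 and Plgrkt at 19.99 RPKM, with fractions of 0.415 and 0.374.

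One library stood apart from its label before any result is read. The 44 collagen chains of the table, mRNAs of the rough ER, summed to 399 RPKM (315 reads) in cytosol library b of 0.5 h, against 35.5 RPKM (43 reads) in cytosol library a. They summed to 489 and 377 RPKM in the ER libraries of the same time. Untreated cytosol libraries had 26.5 and 18.8 RPKM. Fn1, which encodes fibronectin, was at 47.5 RPKM in cytosol b and 6.67 RPKM in cytosol a at 0.5 h. On the log2 scale over the 2138 tested members, cytosol b correlated with ER a and b at Pearson 0.864 and 0.865, and cytosol a at 0.828 and 0.814. The replicate pairs correlated at 0.895 (ER a with ER b) and 0.885 (cytosol a with cytosol b). Over the 315 flagged genes among them, cytosol b correlated with ER a and b at 0.828 and 0.854, and with cytosol a at 0.832. Over the same 315 genes cytosol a correlated with ER a and b at 0.792 and 0.757. The correlations are across genes, which are not independent replicates. The part of this library in the results was not tested. Many results are therefore also given without cytosol b, and some without cytosol a. Median fractions of lists, window classes and other values with no such figure rest on all libraries, cytosol b included.

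As a check of the cell type, 8 of 14 fibroblast markers were members, and the list summed to 680 RPKM at 0.5 h against 729 RPKM untreated. The lists of endothelial, macrophage and epithelial markers summed to 11.7, 19.1 and 16.6 RPKM at 0.5 h with no member, and Krt18 was listed at 0. The muscle and myofibroblast list summed to 705 RPKM, nearly all of it from Tagln and Acta2, with Myog listed at 0, and the neural list to 109 RPKM, with Nes at 51.2 RPKM and Sox2 listed at 0. In these bulk libraries fewer cells of a type and less RNA per cell cannot be told apart.

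At 0.5 h most mRNAs of ER-targeted products had less than 0.5 of their deposited level on the ER. The median fraction on the ER was 0.429 (quartiles 0.326 and 0.541) for the 677 flagged members and 0.385 (quartiles 0.3 and 0.474) for the 3068 not flagged. A fraction over 0.5 was held by 216 flagged members (31.9%) and by 618 not flagged (20.1%), and over 0.8 by 11 in each. Over the times 0, 0.5, 1, 2 and 4 h the flagged median was 0.774, 0.429, 0.631, 0.658 and 0.718. The median of genes not flagged was 0.494, 0.385, 0.512, 0.506 and 0.523 at the same times. The lowest median of both series was that of 0.5 h. The overall level of the fraction rests on the authors' weight of each compartment, which differed between times. Scaling every library to the same total raised the share over 0.5 to 72.4% of flagged and 64.4% of other members. These totals lean on very high rows. C330021F23Rik alone held 113196 of the 455241 RPKM summed in cytosol a at 0.5 h, and 31946 of 231300 RPKM in ER a. The part of such rows in the scaled shares was not tested. Leaving out cytosol b raised the shares to 56.0% and 34.1%.

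**Figure D1:**
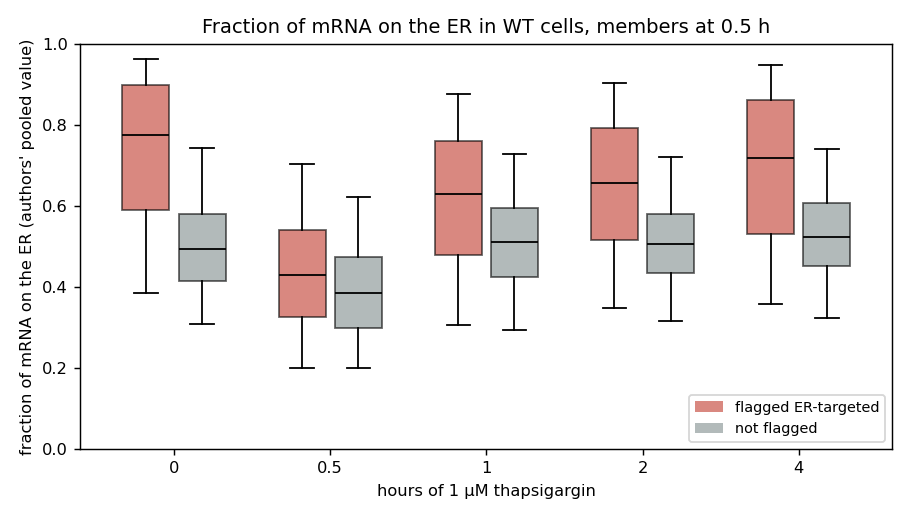
The fraction of mRNA on the ER (vertical axis, the authors' pooled value) by hours of 1 µM thapsigargin in WT cells, for members flagged ER-targeted and not flagged that have a fraction at that time; boxes give the quartiles and median, and whiskers the 5th and 95th percentiles. The flagged median is 0.774 at 0 h, 0.429 at 0.5 h and 0.718 at 4 h.

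The flagged genes lost more than the others. Among members with both values, the fraction at 0.5 h was lower than untreated for 538 of 591 flagged genes (91.0%), with a median change of -0.314, and for 2304 of 2940 genes not flagged (78.4%), with a median change of -0.107. Without cytosol b the flagged median change was -0.197. Of the 269 flagged members over 0.8 on the ER in untreated cells, 5 were over 0.8 at 0.5 h, 108 were over 0.5 and 161 were at 0.5 or under. Their median fraction was 0.471 at 0.5 h against 0.905 untreated, and it was 0.874 at 4 h. The median total of the flagged genes was 41.5 RPKM at 0.5 h and 40.8 RPKM untreated. Because members had to reach 20 RPKM at 0.5 h, these medians cannot show whether the totals of single genes changed.

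**Figure D2:**
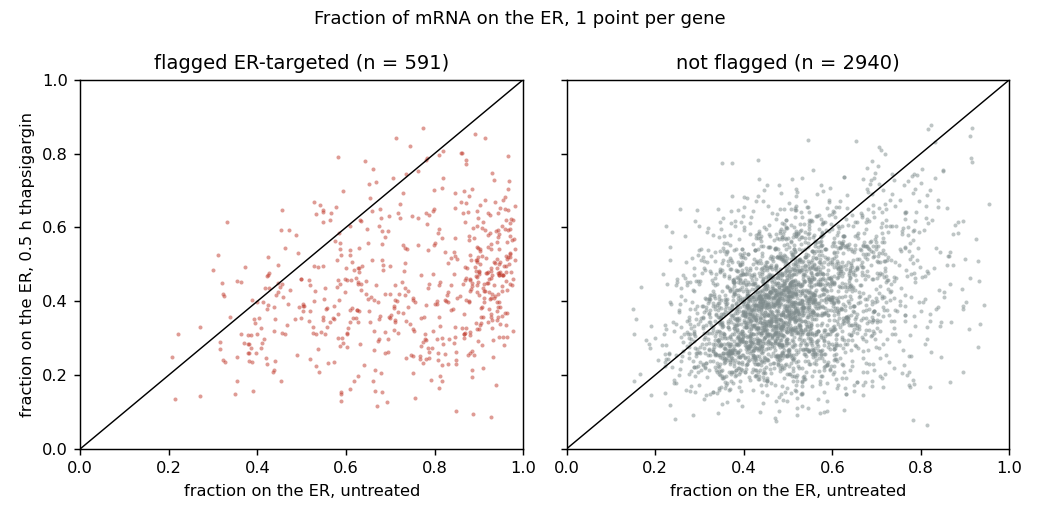
The fraction of mRNA on the ER at 0.5 h (vertical axis) against untreated WT cells (horizontal axis), 1 point per member, for 591 flagged genes on the left and 2940 genes not flagged on the right; the line marks equal values. Of 269 flagged genes over 0.8 untreated, 161 lie at 0.5 or under at 0.5 h, and 538 of the 591 points are under the line.

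In single libraries the gap between flagged and other genes at 0.5 h depended on the cytosol library used. The median log2 difference of ER minus cytosol, on log2(RPKM + 5), was higher in flagged than in other members by 0.42 and 0.48 with cytosol a and by 0.05 and 0.08 with cytosol b, for ER a and ER b in turn. In untreated cells the 4 combinations gave 1.39 to 1.56. The value over all 4 libraries of 0.5 h was 0.28, from 605 flagged and 2686 other members with library values. No combination at 0.5 h came near the untreated range.

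The test of the difference itself, the ER minus cytosol value at 0.5 h minus that of untreated cells, was fitted with limma over all 20 WT mRNA libraries for 2667 genes, with Benjamini-Hochberg adjusted p under 0.05 as the call. Of all genes tested, 7.61% fell and 0.075% rose. Among the 315 flagged members tested, 138 fell and 0 rose, with a median shift of -2.07. Among the 1823 members not flagged, 51 fell and 2 rose, with a median of -0.47. At an unadjusted p under 0.05 in the same fit, 0 flagged members rose. Without cytosol b, 94 flagged members fell, with a median of -1.51, and 23 of the others, with a median of -0.37. All 94 were among the 138. Without cytosol a, 170 flagged members fell, with a median of -2.52, and 51 of the others, with a median of -0.60. With every library centred on genes not flagged, which takes out the weights and moves the median of all tested genes by 0.45, the background was 4.54% fallen and 0.225% risen, and 102 flagged members fell (median -1.63) against 15 of the others (median -0.03). The ER and cytosol libraries of 0.5 h enter both this test and the comparison at 0.5 h alone.

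The ER minus cytosol difference at 0.5 h alone, with the deposited weights, was called higher on the ER for 0.525% and lower for 10.2% of the 2667 genes. Among the 315 flagged members tested, 3 were higher and 16 lower (median -0.22), and among the 1823 not flagged 5 were higher and 254 lower (median -0.53). Centred on genes not flagged, which moved the median of all tested genes by 0.43, the background was 3.37% higher and 2.06% lower, and 12 flagged members were higher and 2 lower, against 16 and 53 of the others. Which side has more calls among all genes tested thus depends on the weights. Without cytosol b, 21 flagged members were higher and 7 lower, and 14 of the others were higher and 111 lower. Without cytosol a, 0 flagged members were higher and 3 lower, and 1 of the others was higher and 39 lower.

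Chaperones and disulfide isomerases of the ER fold the proteins that enter it. The 29 members of this list had a median fraction of 0.471 at 0.5 h, against 0.932 in untreated cells, and 15 of 19 tested fell in the shift (14 without cytosol b). Hsp90b1, the ER form of Hsp90, had 586 and 457 RPKM in the ER libraries and 337 and 548 RPKM in the cytosol libraries at 0.5 h. Untreated, it had 1234 and 1026 RPKM on the ER and 20.8 and 21 RPKM in the cytosol. The cytosol libraries of 0.5 h lay far above those of untreated cells, and the ER libraries lay below. Its shift was -5.18 ± 0.45 (SE, adjusted p = 8.0e-07), and -4.84 without cytosol b (adjusted p = 2.0e-05).

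Calr, the calcium-binding lectin chaperone calreticulin, had 590 and 493 RPKM on the ER against 482 and 736 RPKM in the cytosol at 0.5 h. In untreated cells it had 1365 and 924 RPKM on the ER and 54.7 and 61.9 RPKM in the cytosol, and the shift was -4.30 ± 0.39 (adjusted p = 8.2e-07). Canx, its membrane-bound relative calnexin, had 398 and 327 RPKM on the ER against 376 and 490 RPKM in the cytosol at 0.5 h. In both genes the ER and cytosol libraries of 0.5 h overlapped. Canx had 853 and 702 RPKM on the ER untreated, with 34.1 and 28.5 RPKM in the cytosol, and a shift of -4.68 ± 0.41 (adjusted p = 8.0e-07). Hspa5 (BiP), the chief Hsp70 of the ER, differed between the cytosol libraries, at 109 and 324 RPKM, with 379 and 278 RPKM on the ER. In untreated cells it had 453 and 322 RPKM on the ER and 21.4 and 16.6 RPKM in the cytosol. Its shift was -3.25 ± 0.62 (adjusted p = 0.0024), and -2.48 without cytosol b (adjusted p = 0.019).

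Components of the translocon, signal peptidase and oligosaccharyltransferase receive, trim and glycosylate the growing chain. Their 26 members had a median fraction of 0.364 at 0.5 h, against 0.874 untreated, and 13 of 15 tested fell (9 without cytosol b). Ssr3, a subunit of the translocon-associated protein complex, had 235 and 172 RPKM on the ER and 169 and 378 RPKM in the cytosol at 0.5 h. Its untreated levels were 574 and 506 RPKM on the ER and 42.5 and 58.8 RPKM in the cytosol, with a shift of -3.63 ± 0.51 (adjusted p = 0.00015). Sec11a, a catalytic subunit of signal peptidase, shifted by -4.24 ± 0.65 (adjusted p = 0.00034), and its fraction was 0.348 at 0.5 h against 0.930 untreated. Rrbp1, the ribosome-binding protein p180, kept a higher fraction at 0.501 against 0.946, with a shift of -3.70 (adjusted p = 0.0021).

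Bcap31, a multi-span ER membrane protein, had 30.1 and 45.0 RPKM on the ER and 113 and 60.1 RPKM in the cytosol at 0.5 h. In untreated cells it had 152 RPKM in each ER library and 3.57 and 8.08 RPKM in the cytosol, which were 1 and 2 reads. The order of its libraries was the opposite at the 2 times, without overlap. The difference at 0.5 h alone was not called by limma (-1.07, adjusted p = 0.14, or -0.64 and 0.42 with centring). The shift of Bcap31 was -4.95 ± 0.65 (adjusted p = 7.7e-05), or -5.38 without cytosol b. Its first hydrophobic stretch, in capitals above, lies in the first membrane span.

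The p24 proteins, KDEL receptors and cargo receptors, which move between ER and Golgi, had a median fraction of 0.427 over 9 members, against 0.831 untreated, and 3 of 5 tested fell (3 without cytosol b). Tmed2, a p24 cargo receptor, was one of the 16 flagged members called lower on the ER at 0.5 h itself. It had 180 and 126 RPKM on the ER and 324 and 357 RPKM in the cytosol (difference -1.15 ± 0.33, adjusted p = 0.036, or 0.16 with centring and 0.06 to 0.24 when any 1 library of 0.5 h was left out), and shifted by -3.75 ± 0.47 (adjusted p = 6.6e-05). Genes of ER-associated degradation, which return misfolded proteins to the cytosol, had a median of 0.406 over 11 members, against 0.751 untreated, and 1 of 6 tested fell (2 without cytosol a).

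Extracellular matrix is laid down by fibroblasts from secreted proteins. The 18 members among matrix glycoproteins and proteoglycans had a median fraction of 0.484 at 0.5 h, against 0.947 untreated, and 9 of 12 tested fell (6 without cytosol b, 12 without cytosol a). Sparc, a collagen-binding matrix protein, had 81.6 and 29.2 RPKM on the ER and 39.9 and 128 RPKM in the cytosol at 0.5 h, with overlapping libraries. Before treatment it had 229 and 205 RPKM on the ER and 11.6 and 13.1 RPKM in the cytosol, and the shift was -4.18 ± 0.86 (adjusted p = 0.004). The 8 members among collagen-modifying enzymes had a median of 0.345 against 0.889 untreated, and 5 of 6 tested fell (4 without cytosol b). Serpinh1, the collagen chaperone Hsp47, was among them with a fraction of 0.367 against 0.964 and a shift of -4.11 ± 0.69 (adjusted p = 0.00096).

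Collagen chains kept the highest fraction of any list, a median of 0.621 over 7 members, against 0.964 untreated. Of 6 tested, 1 fell with all libraries. Without cytosol b 0 fell, by limma with adjusted p under 0.05, and 5 of the 6 were called higher on the ER at 0.5 h. Without cytosol a, 5 of the 6 fell, with a median shift of -2.99, and 0 were called higher. Col5a2, the α2 chain of collagen V, had 292 and 184 RPKM on the ER at 0.5 h, against 16.1 RPKM in cytosol a and 231 RPKM in cytosol b. Untreated it had 388 and 334 RPKM on the ER and 8.2 and 4.64 RPKM in the cytosol. Its shift was -3.27 ± 0.92 (adjusted p = 0.031), -1.53 without cytosol b (adjusted p = 0.11), -5.01 without cytosol a (adjusted p = 6.4e-06) and -2.83 with centring (adjusted p = 0.08). Leaving out 1 library in turn ended the call of Col5a2 in 6 of 8 cases. The 2 cytosol libraries of 0.5 h thus give different answers for collagens, where library b is the one that holds nearly all of the cytosol reads. Fn1 behaved alike, with 66.9 and 48.7 RPKM on the ER, 6.67 and 47.5 RPKM in the cytosol and a shift of -1.78 that missed the threshold (adjusted p = 0.17). For Fn1 the shift was -0.70 without cytosol b and -2.87 without cytosol a (adjusted p = 0.0039). Col4a1, a chain of basement membrane collagen IV, was the one collagen higher on the ER with all libraries. It had 24.1 and 12.6 RPKM on the ER and 0.724 and 4.42 RPKM in the cytosol (difference 1.62 ± 0.36, adjusted p = 0.0083, but 0.092 without ER a and 0.086 without cytosol a).

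Other secreted proteins carried some of the largest shifts. Fstl1, a secreted glycoprotein, had 69.8 and 39.6 RPKM on the ER and 78.9 and 139 RPKM in the cytosol at 0.5 h. In untreated cells it had 139 and 162 RPKM on the ER and 8.58 and 3.24 RPKM in the cytosol, with a shift of -4.80 ± 0.62 (adjusted p = 7.7e-05). Timp2, an inhibitor of matrix metalloproteinases, had 172 and 240 RPKM on the ER and 236 and 268 RPKM in the cytosol at 0.5 h, with overlap. Its untreated levels were 521 and 330 RPKM on the ER and 47.7 and 27.0 RPKM in the cytosol, and it shifted by -3.65 ± 0.50 (adjusted p = 0.00012).

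Chemokines, cytokines and growth factors had a median fraction of 0.418 over 8 members, against 0.829 untreated, and 3 of 5 tested fell (2 without cytosol b). Ccl2, a chemokine that attracts monocytes, had 27.7 and 0 RPKM on the ER (5 and 0 reads) and 97.6 and 87.0 RPKM in the cytosol (12 and 7 reads). Before treatment it had 78.8 and 71.6 RPKM on the ER and 0 and 13.3 RPKM in the cytosol. This was the largest called shift of all members, -5.99 ± 1.04 (adjusted p = 0.0012), and Ccl2 was the 1 gene of this list called lower on the ER at 0.5 h itself (-2.93 ± 0.74, adjusted p = 0.018, or 0.062 without cytosol b, 0.086 without cytosol a, 0.26 without ER b and 0.055 with centring), on few reads and with libraries at 0. Its deposited fraction of 0.231 rests on the 1 ER library with reads. Fgf7, a fibroblast growth factor with 0.462 on the ER at 0.5 h and 0.623 untreated, did not pass (-0.91, adjusted p = 0.24).

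Of lysosomal hydrolases and membrane proteins, which enter through the ER, 10 of 11 tested fell (8 without cytosol b), and 16 members had a median fraction of 0.448 at 0.5 h, against 0.920 untreated. Ctsl, the protease cathepsin L, had 123 and 95.7 RPKM on the ER and 97.5 and 160 RPKM in the cytosol at 0.5 h. Untreated it had 270 and 207 RPKM on the ER and 2.62 and 8.89 RPKM in the cytosol, with a shift of -4.75 ± 0.59 (adjusted p = 6.2e-05). Asah1, acid ceramidase, had 108 and 92.3 RPKM on the ER and 123 and 145 RPKM in the cytosol at 0.5 h, without overlap but with the difference at that time not called (-0.40, adjusted p = 0.51). Its shift was -4.26 ± 0.49 (adjusted p = 2.4e-05).

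Membrane proteins of the cell surface reach it through the ER. Growth factor and adhesion receptors kept a median of 0.551 over 11 members, against 0.897 untreated, and 5 of 9 tested fell (4 without cytosol b). Both integrin subunits among the members fell (1 without cytosol b). Itgb1, the integrin β1 subunit, had 330 and 216 RPKM on the ER and 112 and 308 RPKM in the cytosol at 0.5 h. In untreated cells it had 715 and 422 RPKM on the ER and 16.5 and 12.4 RPKM in the cytosol, and its shift was -4.33 ± 0.60 (adjusted p = 0.00012). Cd63, a tetraspanin of endosomes, shifted by -4.25 ± 0.65 (adjusted p = 0.00034). Il6st, the shared gp130 receptor chain of IL-6 family cytokines, had a fraction of 0.592 against 0.966 and shifted by -3.39 (adjusted p = 0.00083). Solute carriers outside mitochondria had a median of 0.443 over 13 members, against 0.837 untreated, and 2 of 9 tested fell (1 without cytosol b, 4 without cytosol a). The Tmem genes had a median of 0.477 over 31 members, against 0.723, and 2 of 4 tested fell (1 without cytosol b, 3 without cytosol a).

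**Figure D3:**
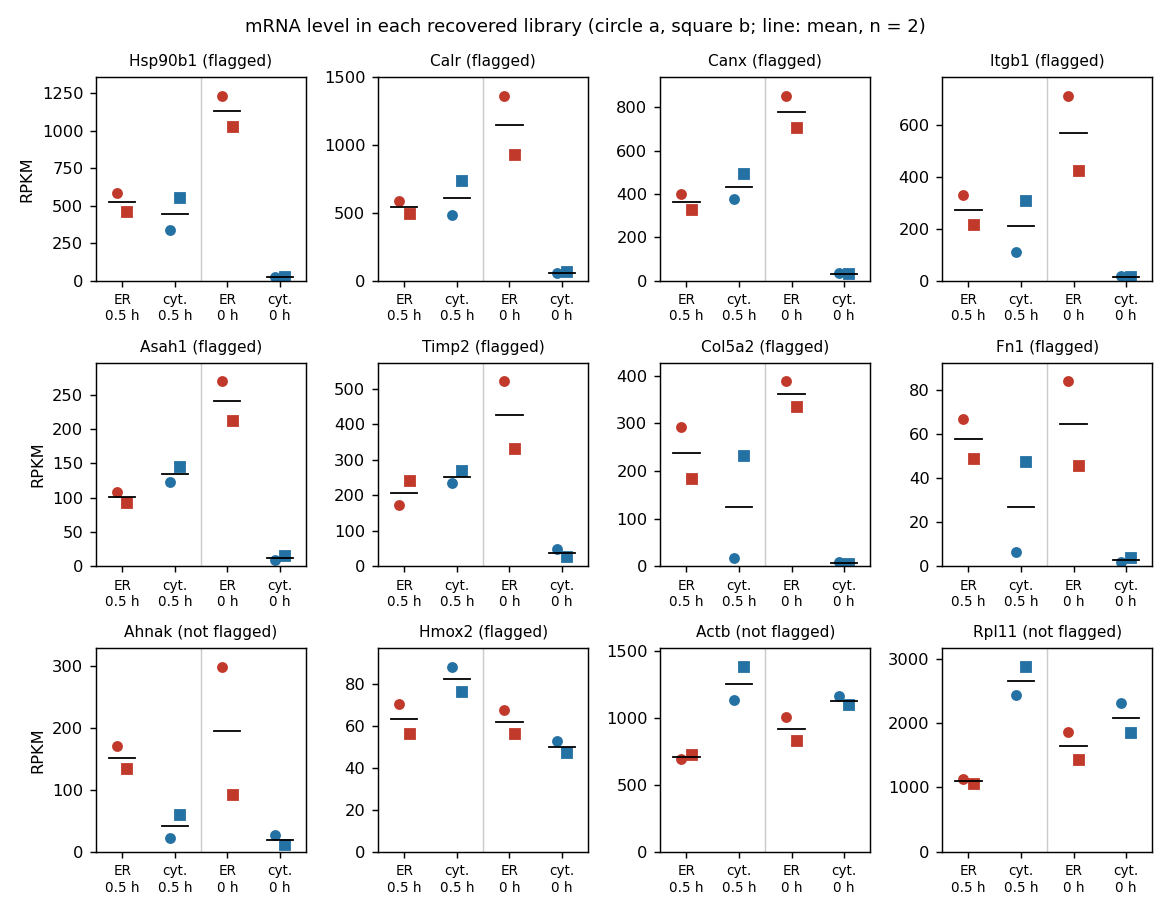
The mRNA level in each recovered WT library (vertical axis, RPKM after the authors' weights, from 0) for 12 genes, on the ER and in the cytosol (cyt.) at 0.5 h and, right of the grey line, untreated (0 h). Circles are library a, squares library b and lines the mean of 2; Hsp90b1, Calr, Canx and Asah1 have low cytosol values only in untreated cells, while Col5a2 and Fn1 at 0.5 h are low in cytosol a and high in cytosol b.

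Tail-anchored proteins have 1 membrane span at the very end and enter membranes after translation, without the signal recognition particle. Of their 30 members 28 carried the flag, yet the list had a median fraction of 0.395 at 0.5 h, against 0.542 untreated, and 0 of 7 tested shifted by limma with adjusted p under 0.05. Hmox2, the tail-anchored heme oxygenase 2, had 70.4 and 56.0 RPKM on the ER and 88.1 and 76.1 RPKM in the cytosol at 0.5 h. In untreated cells it had 67.5 and 56.2 RPKM on the ER and 52.8 and 47.1 RPKM in the cytosol, and the shift was -0.64 ± 0.44 (adjusted p = 0.46). Membrane spans were also read from proteins translated from GENCODE transcripts, which matched 613 of the 677 flagged members. The 58 flagged members whose only hydrophobic window of 19 residues ended in the last 40 residues had a median of 0.413 at 0.5 h, against 0.553 untreated, and 3 of 21 tested fell. The 163 with a single window starting in the first 40 residues had 0.435 against 0.877, and 50 of 89 fell. Those with 2 to 5 windows had 0.426 against 0.798 (189 genes), and those with 6 or more had 0.471 against 0.786 (51 genes). The 31 flagged members with no window and no hydrophobic start had 0.343 against 0.565.

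**Figure D4:**
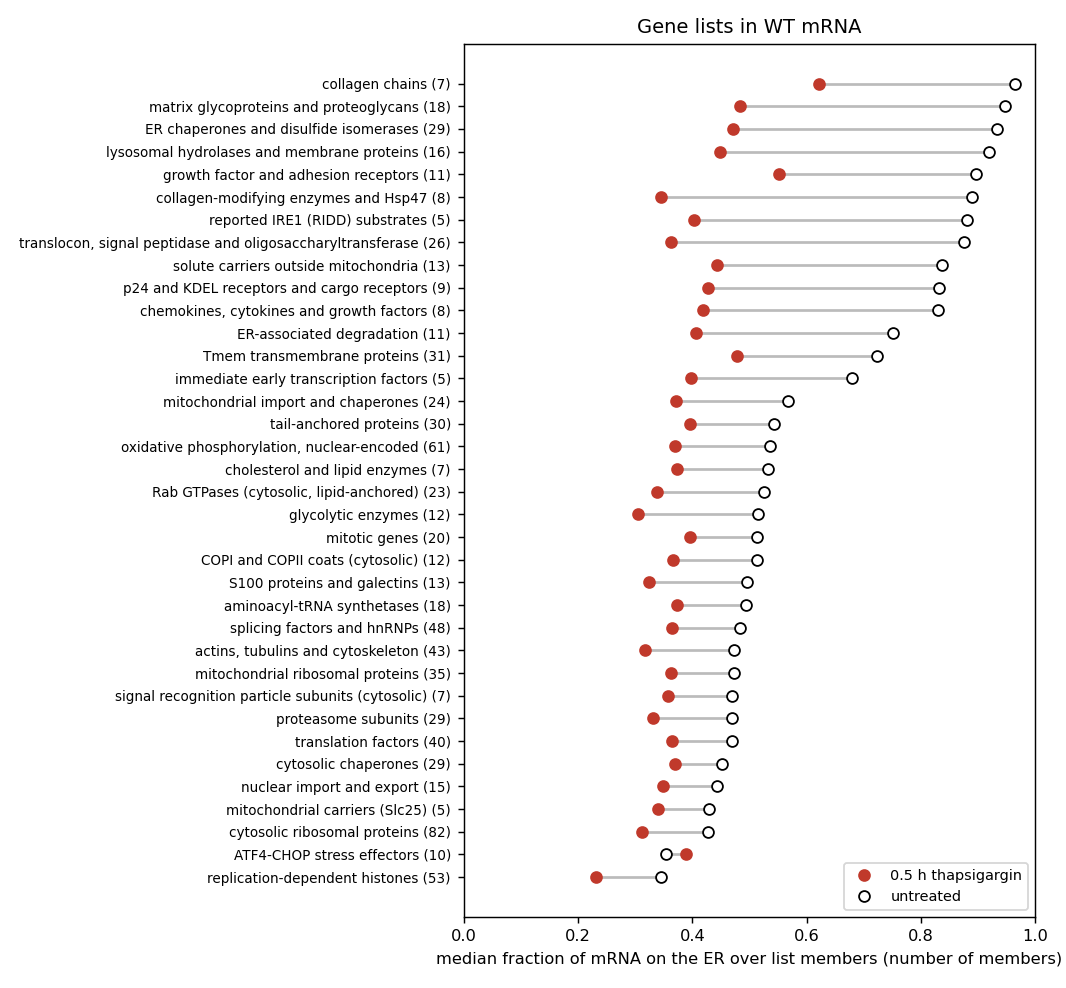
The median fraction of mRNA on the ER (horizontal axis) over the members of each gene list in WT cells at 0.5 h of thapsigargin (filled) and untreated (open), with the number of members at 0.5 h after each name. Lists of secreted, ER and lysosomal products are at the top, as collagen chains at 0.621 and 0.964 and ER chaperones at 0.471 and 0.932, and cytosolic ribosomal proteins are near the bottom at 0.311 and 0.427.

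Among the 8 members called higher with no overlap of libraries, flagged genes were Vmn2r55, Col4a1 and Scpep1. Scpep1, a serine carboxypeptidase, had 20.0 and 19.5 RPKM on the ER (11 and 8 reads) and 2.67 and 4.08 RPKM in the cytosol (1 read each), with a difference of 1.57 ± 0.46 (adjusted p = 0.035, but 0.085 to 0.14 when any 1 library of 0.5 h was left out). Vmn2r55, of the multigene family of vomeronasal receptors, had a difference of 2.06 ± 0.56 (adjusted p = 0.026), and since copies can share reads its value is uncertain. Genes not flagged were Grk4, Ahnak, Smarcd3, Ahsa2 and Mob4. Ahnak, a very large scaffold protein of the cell cortex, had 170 and 133 RPKM on the ER and 22 and 59.8 RPKM in the cytosol at 0.5 h (1.89 ± 0.50, adjusted p = 0.023). Its untreated levels were 298 and 91.6 RPKM on the ER and 26.5 and 10.5 RPKM in the cytosol, and its shift did not pass (-1.06, adjusted p = 0.45). Grk4, a kinase of G protein-coupled receptors, had the largest difference, 2.93 ± 0.57 (adjusted p = 0.0043). It had 218 and 323 RPKM on the ER (47 and 52 reads) and 13.6 and 62.4 RPKM in the cytosol (2 and 6 reads). Its fraction was 0.877 at 0.5 h and 0.822 untreated, with no footprint fraction at either time. Its shift did not pass (1.05, adjusted p = 0.51). Without cytosol a, none of these 8 kept an adjusted p under 0.05 (0.071 to 0.28), and without ER b the adjusted p was 0.051 for Grk4, 0.076 for Ahnak and 0.15 for Vmn2r55. Without ER a it was 0.12 for Ahnak and 0.062 for Vmn2r55.

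The only 2 members whose shift rose were Ahsa2 and Mob4. Ahsa2, related to an activator of Hsp90, had 42.2 and 46.6 RPKM on the ER and 3.65 and 22.3 RPKM in the cytosol at 0.5 h, against 19.3 and 10.7 RPKM on the ER and 34.4 and 20.9 RPKM in the cytosol of untreated cells. Its shift was 2.40 ± 0.67 (adjusted p = 0.031), 3.22 without cytosol b and 1.57 without cytosol a (adjusted p = 0.14). Leaving out 1 library in turn ended the call of Ahsa2 in 5 of 8 cases and that of Mob4 in 7 of 8. Mob4, a subunit of the STRIPAK phosphatase complex, shifted by 2.03 ± 0.61 (adjusted p = 0.048; 0.078 without cytosol b and 0.12 without cytosol a), on 8 and 13 reads on the ER and 2 reads in each cytosol library at 0.5 h.

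At the cytosolic end, 270 of the 2138 members tested were called lower on the ER, set beside 10.2% of all 2667 genes tested. All 270 had no overlap of libraries. Of members not flagged, 254 of 1823 were lower, and the list counts of such genes below are to be read beside that share. No list was tested against it. Replication-dependent histones, whose mRNAs lack a poly(A) tail, had the lowest median fraction, 0.231 over 53 members, against 0.345 untreated. Of 40 tested, 23 were lower on the ER (20 without cytosol b, 6 without cytosol a) and 1 shifted (0 without cytosol a and 0 without cytosol b), and with centring 10 were lower. Hist2h3c2, a gene for histone H3, had 30.1 and 8.08 RPKM on the ER and 239 and 189 RPKM in the cytosol (-3.34 ± 0.45, adjusted p = 0.00035). Histone genes have near-identical copies that can share reads, so single values are uncertain. Myl12b, shown above, had 19.1 and 6.40 RPKM on the ER and 70.0 and 74.9 RPKM in the cytosol (-2.22 ± 0.49, adjusted p = 0.0083, but 0.11 without ER b and 0.055 without cytosol a). Crabp2, a carrier of retinoic acid, had 17.8 and 0 RPKM on the ER and 78.5 and 79.9 RPKM in the cytosol (-2.98 ± 0.55, adjusted p = 0.0033, but 0.058 without ER b).

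Cytosolic ribosomal proteins had a median fraction of 0.311 over 82 members, against 0.427 untreated. Of 72 tested, 34 were lower on the ER (17 without cytosol b, 7 without cytosol a, 8 with centring) and 2 fell in the shift (0 without cytosol b). Rpl11 had 1138 and 1051 RPKM on the ER and 2429.5 and 2874 RPKM in the cytosol (-1.27 ± 0.27, adjusted p = 0.0065, but 0.057 without ER b). Rpl13a had 1632 and 1719 RPKM on the ER and 1621 and 2385 RPKM in the cytosol (-0.23, adjusted p = 0.65), where the compartments overlapped. Of 43 members among actins, tubulins and cytoskeleton, with a median of 0.317 against 0.473, 16 of 38 tested were lower on the ER (8 without cytosol b, 2 without cytosol a, 5 with centring) and 3 fell in the shift (1 without cytosol a, 1 without cytosol b, 1 with centring). Glycolytic enzymes had 0.306 against 0.515 over 12 members, and 5 of 12 were lower on the ER (2 without cytosol b, 1 without cytosol a, 1 with centring). Translation factors had 0.364 against 0.469 over 40 members, and 7 of 38 were lower on the ER (6 without cytosol b, 3 without cytosol a, 2 with centring).

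Among flagged genes called lower on the ER at 0.5 h by limma, C330021F23Rik had a fraction of 0.249 against 0.354 untreated. It is the very high row named above, with a total of 137511 RPKM at 0.5 h and no untreated footprint fraction. The origin of its reads was not tested. Its difference was -1.59 ± 0.12 (adjusted p = 2.2e-07, or 0.0033 with centring). Glipr1 had 0.261 against 0.380 (-1.49 ± 0.27, adjusted p = 0.0033, or 0.042 with centring). Endog, a mitochondrial endonuclease, had 0.287 against 0.370 (-1.28 ± 0.24, adjusted p = 0.0033, or 0.055 with centring). Some others make mitochondrial or tail-anchored products. Slc25a5, a mitochondrial ADP/ATP carrier, had a fraction of 0.184 at 0.5 h and 0.353 untreated (difference -1.70 ± 0.47, adjusted p = 0.028). Cox4i1, a subunit of cytochrome oxidase, had 0.205 against 0.680 and also fell in the shift (-2.52, adjusted p = 0.013, but 0.078 without cytosol b and 0.06 with centring). Both are mitochondrial proteins made in the cytosol. Vapa, a tail-anchored protein of ER contact sites, had 0.157 against 0.389 (-1.83 ± 0.54, adjusted p = 0.038). Sqle, squalene monooxygenase of sterol synthesis, had 0.225 against 0.532 (-1.42 ± 0.40, adjusted p = 0.03). Lrrc59, a ribosome-binding ER membrane protein, had 32.1 and 35.9 RPKM on the ER and 126 and 96.1 RPKM in the cytosol (-1.56 ± 0.37, adjusted p = 0.014). With centring the adjusted p of the last 5 differences, from Slc25a5 to Lrrc59, was 0.085 to 0.13, so none of these 5 was called. The calls of Slc25a5, Cox4i1, Vapa and Sqle were also lost when any 1 library of 0.5 h was left out, and that of Lrrc59 in 3 of 4 cases.

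ATF4 and CHOP are transcription factors of the PERK branch of the stress response. The 10 members among ATF4 and CHOP effectors had a median of 0.389 at 0.5 h, against 0.354 untreated, and 0 of 8 tested shifted by limma with adjusted p under 0.05. Atf4, the transcription factor translated when eIF2α is phosphorylated, had 32.9 and 31.6 RPKM on the ER and 58.8 and 63.4 RPKM in the cytosol at 0.5 h. Before treatment it had 27.4 and 20.3 RPKM on the ER and 32.6 and 62.4 RPKM in the cytosol, with a shift of -0.01 ± 0.57 (adjusted p = 0.99). Ddit3 (CHOP) had 73.2 and 72.0 RPKM on the ER and 71.7 and 98.6 RPKM in the cytosol, with a shift of -1.23 ± 0.44 (adjusted p = 0.1). Xbp1, whose mRNA is spliced by IRE1 at the ER membrane, had a total of 13.7 RPKM and was no member. Its fraction was 0.461 at 0.5 h and 0.546 untreated. Of reported IRE1 substrates, 3 of 4 tested fell (1 with centring), set beside 138 of 315 flagged members tested (102 with centring). The 5 members of this list, 4 of them flagged, had a median of 0.404 against 0.881.

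Coding length went with the place of the mRNA at 0.5 h. Across genes, Spearman's rho of coding length with ER minus cytosol was 0.43 over 315 flagged and 0.44 over 1823 other tested members, and 0.07 and 0.38 in untreated cells. The flagged median difference was -0.67 for coding regions of up to 500 nt (24 genes), -0.58 for 501 to 1000 nt (61), -0.21 for 1001 to 2000 nt (141), 0.13 for 2001 to 4000 nt (76) and 0.72 above 4000 nt (13, a thinly filled class). In genes not flagged the medians were -1.09, -0.78, -0.57, -0.25 and 0.06 over the same classes. The rise with length was present with either cytosol library, and for the 4 combinations rho in flagged genes was 0.26 to 0.44. Length and level were tied as well (rho -0.49 and -0.57), and short genes hold fewer reads per RPKM. The part of level in this relation was not tested.

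**Figure D5:**
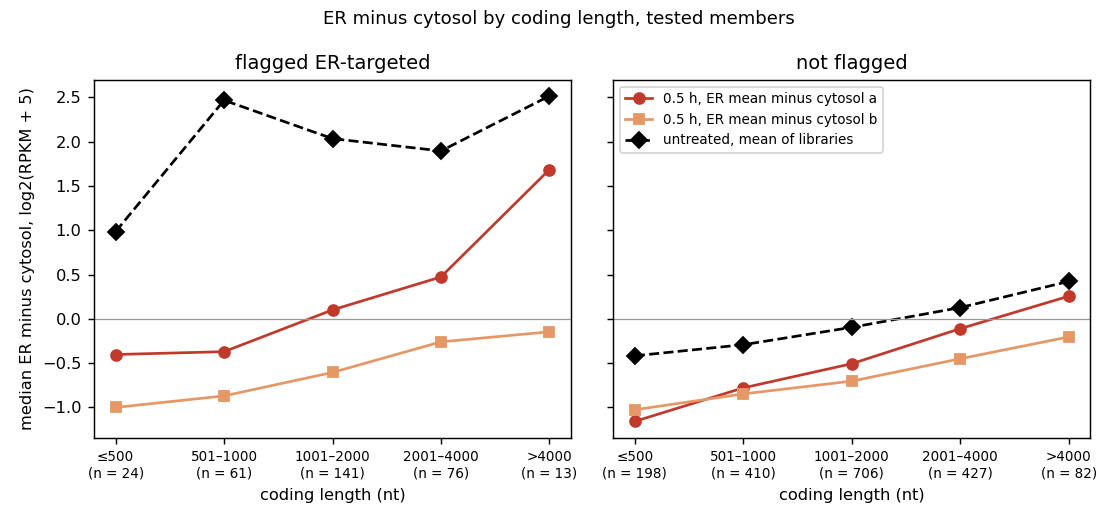
The median ER minus cytosol difference (vertical axis, log2(RPKM + 5)) by class of coding length (horizontal axis, nt, with the number of genes) for tested members flagged ER-targeted (left) and not flagged (right). Lines give 0.5 h with cytosol library a or b against the mean of the ER libraries, and the mean of the untreated libraries (dashed); at 0.5 h all 4 lines are higher in the longest class than in the shortest, and flagged untreated medians are near 2 or above from 501 nt on.

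Ribosome footprints of the same cells, pooled values of a separate table, were set beside the mRNA. For 455 flagged members with mRNA and footprint values at both times, the median fraction on the ER at 0.5 h was 0.424 in mRNA and 0.469 in footprints, and untreated it was 0.807 and 0.948. For 2762 members not flagged, it was 0.382 in mRNA and 0.3 in footprints at 0.5 h, and 0.490 and 0.363 untreated. Over the flagged genes Spearman's rho between mRNA and footprints was 0.28 at 0.5 h and 0.82 untreated, as a description across genes that share their libraries. In eIF2A S51A cells at 0.5 h, median mRNA fractions were 0.485 (flagged, 366 genes) and 0.350 (not flagged). In ATF4-/- cells they were 0.608 (397 genes) and 0.472, set beside 0.429 (677 genes) and 0.385 in WT cells. Of the flagged genes, 77 of 366 were over 0.8 on the ER in eIF2A S51A cells and 85 of 397 in ATF4-/- cells. In WT cells 11 of 677 were over 0.8. The gene sets of the genotypes thus differ. Each genotype and time has its own weights, and the genotypes were not tested against each other.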

How the data were processed

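The series holds 120 labelled libraries, of which 4 are WT mRNA at 0.5 h. Per the labels' protocols, digitonin and then DDM gave the cytosol and ER fractions, and ribosomal RNA was removed from the mRNA samples before directional library preparation. The submitters' processing notes name cutadapt 1.6 and Bowtie 1.1.1, and the build of the genome was not given in the sources used here. The authors deposited 1 total level per gene, genotype and time, pooled over replicates and compartments, and the fraction of it on the ER. The unit of the deposited totals, RPKM, was read from the values, since no header names it. The deposited fraction is the ER level over the total, with a weight of each compartment set by the authors. Footprint and mRNA tables were normalized separately, and 42 of their value columns were not used.

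Single libraries were recovered by asking which whole numbers of reads, times the coding length, give each deposited value to within 7e-12 of its size. The lengths of coding regions were taken from GENCODE transcripts and were found for 20628 genes (92.0%). Transcripts were matched by RefSeq identifier, or by symbol where no identifier matched. Where several lengths were possible, the length that solved most values was used. Of 93244 mRNA values 91021 (97.6%) were solved, against 0 of 4818 decoy values with wrong lengths. The authors' mean leaves out libraries without reads. Read counts give the depth, and reads without molecular identifiers are not independent molecules. Replicate libraries at 0.5 h differed beyond counting noise (chi-square per degree of freedom of 1.47 on the ER and 2.56 in the cytosol).

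Levels were tested as log2(RPKM + 5) with limma 3.58.1 in R 4.3.3 (trend, empirical Bayes) over all 20 WT mRNA libraries, for genes with a mean of at least 5 reads and a value in every library, and p-values were adjusted by Benjamini-Hochberg over 2667 genes. A fold change on this scale understates that of low genes. Centring set the median of genes not flagged to the same value in every library. The fit was run on simulated data for the ER against cytosol comparison at 0.5 h over 2720 genes. There, 42 of 100 genes raised 4-fold, 23 of 89 genes lowered 4-fold and 4 of 2531 unchanged genes were called. Unchanged genes had the same mean and the same spread in every simulated library. No simulated library departed from its label as cytosol b did. These counts therefore do not give the error rate of the fit on the real libraries.

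The members and the 46 gene lists were chosen with earlier results of these data known. Syncrip was taken out of the tail-anchored list, and Ctsl out of the list of chemokines, as misplaced, after their values were known. Named genes were up to 3 members of each list by total level, the 10 highest and 10 lowest called differences without overlap, the 10 lowest flagged and 10 highest other called genes, the 5 largest called shifts each way, and Atf4, Ddit3, Xbp1 and Hspa5. Hydrophobic windows (19 residues, Kyte-Doolittle mean of at least 1.6) were read from translated GENCODE transcripts, for 3319 of the 3745 members, as no protein table was used. Alternatives were the pseudocount, the read filter, the scaling, the libraries fitted, voom on recovered reads and leaving out each library, where the library left alone in its group is assumed to vary like the others.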

Additional observations from a re-analysis of the deposited data

Results flagged for a closer look

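The change in ER minus cytosol between 0.5 h and untreated cells was tested as an interaction, and 203 genes had a lower and 2 a higher value at 0.5 h (limma, adjusted p under 0.05, 2667 genes). The largest falls on the log2 scale were those of Ccl2 (-5.99), Hsp90b1 (-5.18), Bcap31 (-4.95), Fstl1 (-4.80) and Ctsl (-4.75). The rises were those of Ahsa2 (2.40) and Mob4 (2.03). Ccl2 rests on at most 12 reads in any library of 0.5 h and Mob4 on at most 13. Of the 203 falls, 122 were also called without cytosol library b.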

How the results depend on the processing

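The count of genes called higher on the ER at 0.5 h was 14, and it was 61 with no filter on reads (20113 genes tested, against 2667), 7 with at least 20 reads (668 genes tested), 105 with every library scaled to the same total, 90 with centring, 9 from the 4 libraries of 0.5 h alone and 22 with voom. Lower calls numbered 272, and 114, 7, 55 and 181 with no filter, equal totals, centring and the 4 libraries alone. Shifted genes numbered 205, and 83 with at least 20 reads, 95 with equal totals and 127 with centring. Leaving out 1 library at a time gave 1 to 52 higher calls, 42 to 118 lower calls and 125 to 259 shifted genes, with 125 shifts and 52 higher calls without cytosol b. Members over 0.5 on the ER were 31.9% of flagged genes, 72.4% with equal totals and 28.6% to 56.0% when 1 library was left out. In genes not flagged they were 20.1%, and 26.6% at a threshold of 10 RPKM, 11.9% at 50 RPKM, 64.4% with equal totals and 19.8% to 34.1% when 1 library was left out. The median change of fraction of flagged members, -0.314, was -0.377 to -0.197. The flagged minus not flagged difference of 0.28 was 0.09 to 0.46 when 1 library was left out and kept its sign in every setting run. With equal totals the difference of 5 named genes changed sign, to 0.12 in Actb, 0.10 in Anxa2, 0.015 in Hsp90aa1, 0.079 in Npm1 and 0.052 in Psmb7. Over all settings, 366 values of 55 named genes called at 0.5 h kept direction and call, 263 lost the call and 5 changed sign. For 41 genes with a called shift, 498 kept both, 142 lost the call and 0 changed sign. The cause was not tested. No paired analysis was possible because the recovered libraries carry no replicate numbers. At a median of 6 to 9 reads per member, small differences of single genes were not detectable at this depth.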
